A study of Homo sapiens with 6 samples.

Results

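The 10 genes described here are 8 aldehyde dehydrogenases (ALDH1A1, ALDH1A2, ALDH1A3, ALDH1B1, ALDH2, ALDH3A1, ALDH3A2 and ALDH7A1), the aldehyde oxidase AOX1 and the retinol dehydrogenase RDH10, out of 39282 genes in the files. They were picked by name as enzymes that oxidise aldehydes and retinoids. ALDH1A1 was picked because it was lower with the MEX3A hairpins in the ovarian line TOV21G, and AOX1 because it was higher, so the hairpin values of these 2 genes are given as a description, with no test. All 10 were in the files, and 9 passed the filter on low counts. ALDH3A1 did not.

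The libraries were poly(A)-selected, stranded RNA-seq of 2 established ovarian tumour lines, TOV21G (clear cell carcinoma) and PA-1 (teratocarcinoma). Cells were infected with a lentivirus carrying sh-MEX3A#1 (hairpin 1), sh-MEX3A#2 (hairpin 2) or the scramble sequence sh-Ctrl (control), so all groups, the controls included, carried a virus. MEX3A binds RNA and carries a ubiquitin ligase domain, and the series' title concerns p53 degradation and ferroptosis. Each line gave 1 library per hairpin and 1 control library, 6 in all, and the series' design text calls each depleted line a clone.

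Aldehyde dehydrogenases oxidise reactive aldehydes to carboxylic acids with NAD or NADP. In the retinoid branch, RDH10 oxidises retinol to retinaldehyde, and ALDH1A1, ALDH1A2 and ALDH1A3 oxidise retinaldehyde to retinoic acid, the ligand of nuclear receptors that set cell fate. The other members clear acetaldehyde, fatty aldehydes, products of lipid peroxidation and intermediates of amino acid breakdown. AOX1 is a molybdenum-containing cytosolic enzyme that oxidises aldehydes, retinaldehyde among them, and many nitrogen-containing ring compounds.

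The libraries held 14654628 to 19495162 expected counts. A count of 0 allows up to 3 counts, a floor of 0.153 to 0.202 CPM (the count scaled by the TMM-adjusted library total). MEX3A had 40.1 and 33.1 CPM under hairpins 1 and 2, and 78.3 CPM in the control, in TOV21G. In PA-1 it had 41.2 and 54.9 CPM under the hairpins and 137 CPM in the control. The 12 clear cell carcinoma markers summed to 4116 and 6703 TPM (abundance scaled by transcript length) with the hairpins and 10120 TPM in the control in TOV21G, mostly through SPP1 (2759 and 5622 against 9013 TPM). The other 11 summed to 1357 and 1080 against 1106 TPM. Of the 12 markers, 11 passed the filter, of which 4 were higher (31.3% of all genes) and 4 lower (31.9%) with both hairpins. At least 2-fold, 1 was higher (4.26% of all genes) and 2 lower (3.36%). DESeq2 called 3 of the 11 (226 of all 16855 genes) and edgeR 0. The 8 teratocarcinoma markers summed to 3773 and 4171 TPM with the hairpins and 3248 TPM in the control in PA-1, and to at most 54.6 TPM in TOV21G. POU5F1 had 2106 and 2395 against 891.5 TPM in PA-1, and the other 7 summed to 1667 and 1776 against 2356 TPM. The nuclear RNA MALAT1 had 9429 and 18460 CPM under the hairpins and 4315 CPM in the control in TOV21G, and 1303 and 1113 against 909.5 CPM in PA-1. NEAT1, also nuclear, had 1133 and 1068 against 360.9 CPM in TOV21G and 270.5 and 273.2 against 119.3 CPM in PA-1.

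**Figure D1:**
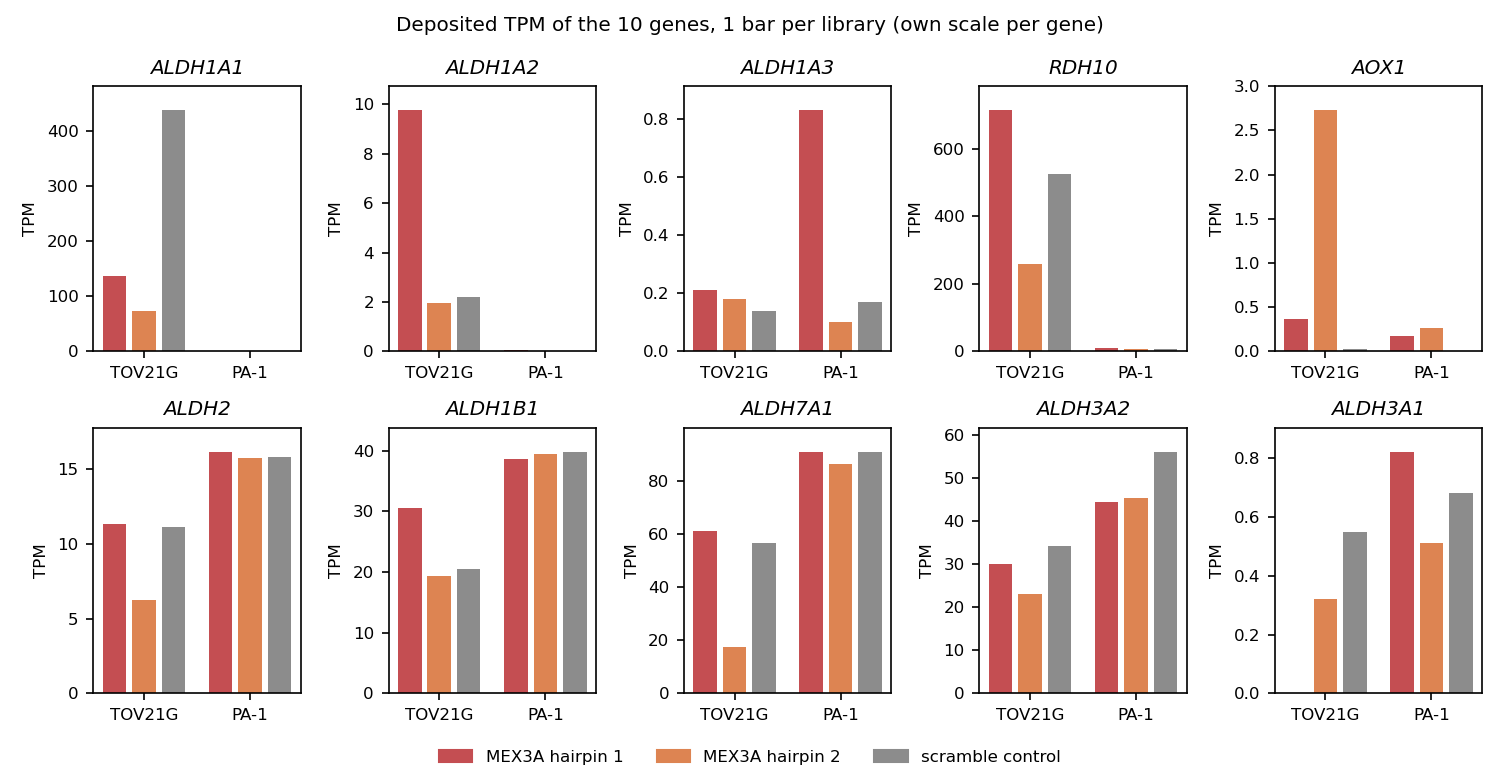
Deposited TPM (vertical axis, own scale from 0 for each gene) of the 10 genes in the 6 libraries, 1 bar per library, with TOV21G left of PA-1 and the hairpins left of the control. ALDH1A1 and RDH10 reach 437 and 715 TPM in TOV21G and stay at or under 9.59 TPM in PA-1, while ALDH7A1 is at 17.3 TPM in the TOV21G hairpin 2 library alone.

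ALDH1A1, the cytosolic retinaldehyde dehydrogenase also used as a marker of stem-like tumour cells, was the member with the highest share of its family in the TOV21G control. In TOV21G it had 137 TPM with hairpin 1 and 73.3 TPM with hairpin 2, against 437 TPM in the control, from 1742, 1046 and 6406 expected counts. Both hairpin libraries lay below the control, hairpin 2 the lower, at 27.6% (ratio 0.276, 95% counting interval 0.262 to 0.291) and 16.9% (0.158 to 0.180) of the control's CPM. The log2 CPM differences from the control were -1.86 and -2.56. In PA-1 it had 3, 3 and 2 counts with hairpin 1, hairpin 2 and the control, at or under the floor, so no fold is given there. Fewer cells that express ALDH1A1 and less ALDH1A1 RNA per cell cannot be told apart in these bulk libraries. SPP1 and MALAT1 also differed between these TOV21G libraries, and their part in this difference was not tested. The other 11 clear cell markers, at 1357 and 1080 against 1106 TPM in sum, were not lower with both hairpins as ALDH1A1 was, hairpin 1 lying above the control.

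ALDH1A1 spans bases 72900671 to 72953053 of chromosome 9 (GRCh38, minus strand). The RefSeq table holds promoters for 7 of the 10 members. The 250 bases before the ALDH1A1 start are chr9:72953054-72953303 and those before the AOX1 start, on the plus strand of chromosome 2, are chr2:200585764-200586013 (GRCh38.p14). They are shown because these 2 genes carry the hairpin differences, with matches to the motifs searched in capitals.
ALDH1A1: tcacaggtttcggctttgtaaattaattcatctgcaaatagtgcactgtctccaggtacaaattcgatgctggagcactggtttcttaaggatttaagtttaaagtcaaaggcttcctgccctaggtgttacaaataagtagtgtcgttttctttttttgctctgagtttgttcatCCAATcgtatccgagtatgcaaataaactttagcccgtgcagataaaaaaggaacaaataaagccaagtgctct
AOX1: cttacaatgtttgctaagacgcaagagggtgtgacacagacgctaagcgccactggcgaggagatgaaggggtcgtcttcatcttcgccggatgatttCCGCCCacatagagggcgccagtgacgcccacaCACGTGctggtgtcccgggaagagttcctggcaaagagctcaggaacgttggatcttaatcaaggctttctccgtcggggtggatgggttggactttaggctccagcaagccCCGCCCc
Searches on both strands covered the CCAAT box, the TATA box (TATAAA), the GC box (GGGCGG, which reads CCGCCC on the other strand), antioxidant response element core (TGACNNNGC), nuclear receptor element (AGGTCA), E-box (CACGTG) and AP-1 site (TGANTCA). ALDH1A1 held 1 CCAAT match, 74 bases before the start, and 32% of 35116 promoter windows hold that motif. AOX1 held GGGCGG matches at 152 and 7 bases before the start (42.6% of windows hold the motif) and a CACGTG match at 119 (6.34% of windows). The TATA box, antioxidant response element core, nuclear receptor element and AP-1 site, present in 10.7%, 10.9%, 12.1% and 6.57% of windows, had no match in either window.

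ALDH1A2, the retinaldehyde dehydrogenase of the embryonic mesoderm, differed between the 2 hairpins. It had 9.77 TPM with hairpin 1 and 1.96 TPM with hairpin 2, against 2.20 TPM in the control of TOV21G, from 211, 48 and 55 counts. The hairpin 1 library stood apart, and the hairpin 2 and control libraries were close. The ratio to the control was 3.89 (95% counting interval 2.88 to 5.34) with hairpin 1 and 0.903 (0.600 to 1.35) with hairpin 2. The edgeR log2 fold change over both hairpins was 1.26 (SE 1.01, adjusted p = 0.711), and it was -0.15 without hairpin 1. In PA-1 it had 1, 0 and 0 counts. LIPC, a gene that overlaps ALDH1A2 on the other strand, had 6 and 27 counts with the hairpins and 28 in the control of TOV21G.

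ALDH1A3, which also makes retinoic acid, was near the limit of detection. It had 4.25, 3.99 and 3.21 expected counts in TOV21G with hairpin 1, hairpin 2 and the control, and 19, 3 and 4 in PA-1. The PA-1 hairpin 1 library was the high one, at 4.58 times the control (95% counting interval 1.52 to 18.5), and hairpin 2 was at 0.606 times (0.0888 to 3.58). On the log2 scale the edgeR fold change was 0.44 (SE 1.59, adjusted p = 0.965) in TOV21G and 1.32 (SE 1.46) in PA-1. ALDH1A3 passed the filter through the PA-1 hairpin 1 library alone, so its PA-1 value is a description.

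RDH10, the retinol dehydrogenase that supplies retinaldehyde in the embryo, was the most abundant member per length in the TOV21G libraries. It had 715 TPM with hairpin 1 and 260 TPM with hairpin 2, against 525 TPM in the control of TOV21G, and 9.59 and 7.30 against 6.71 TPM in PA-1. In TOV21G the control lay between the hairpins. In PA-1 both hairpin libraries lay above it. CPM was at 120.1% (ratio interval 1.18 to 1.23) and 50.2% (0.488 to 0.516) of the control in TOV21G, and the ratios were 1.35 (1.11 to 1.65) and 1.09 (0.899 to 1.33) in PA-1. The edgeR log2 fold change was -0.23 (SE 0.53, adjusted p = 0.919) in TOV21G and 0.29 (SE 0.56, adjusted p = 1) in PA-1, and the TOV21G value was 0.26 without hairpin 2. RDH10-AS1, an antisense transcript over RDH10 on chromosome 8, had 22.5 and 6.70 TPM with the hairpins against 13.2 TPM in the control of TOV21G, in the same order as RDH10. RPL7, a protein-coding gene on the other strand, also overlaps RDH10. It had 16903 to 22714 counts per library, where RDH10 had 181 to 254 in PA-1. The kit kept strand, but the strand setting of the counting is not given in the sources used here. How the reads split between RDH10, RDH10-AS1 and RPL7 is therefore uncertain, for the PA-1 values of RDH10 above all.

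AOX1 was under 1 TPM in every library but TOV21G hairpin 2. It had 0.37 and 2.73 TPM with hairpins 1 and 2 against 0.03 TPM in the control of TOV21G (12, 100 and 1 counts). In PA-1 it had 0.17 and 0.27 TPM against 0 TPM (5, 11 and 0 counts). Each hairpin library lay above the control of its line, with TOV21G hairpin 2 far above the others. The ratio to the 1 count of the TOV21G control was 12.2 (95% counting interval 1.80 to 521) with hairpin 1 and 103 (18.1 to 4126) with hairpin 2, and hairpin 2 was 8.49 times hairpin 1 (4.65 to 17.0). Against the 3-count floor of the PA-1 control library, AOX1 was at least 1.61-fold higher with hairpin 1 and at least 2.96-fold higher with hairpin 2. MALAT1 was also highest in the TOV21G hairpin 2 library, and its part in this pattern was not tested.

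Among the enzymes that clear other aldehydes, ALDH2, the mitochondrial enzyme that clears acetaldehyde, had 11.4 and 6.23 TPM with hairpins 1 and 2 against 11.2 TPM in the control of TOV21G, and 16.2 and 15.8 against 15.8 TPM in PA-1. ALDH1B1, a mitochondrial relative, had 30.5 and 19.4 against 20.4 TPM in TOV21G, and 38.7 and 39.5 against 39.8 TPM in PA-1. For both genes the 3 PA-1 libraries were close together. In TOV21G hairpin 2 was the low library for ALDH2, and hairpin 1 the high one for ALDH1B1. The log2 fold changes in TOV21G were -0.45 for ALDH2 (SE 0.34, edgeR adjusted p = 0.695) and 0.19 for ALDH1B1 (SE 0.30, edgeR adjusted p = 0.863), and ALDH1B1 was at -0.06 without hairpin 1. In PA-1 they were -0.02 (SE 0.34) and -0.06 (SE 0.29), each with an edgeR adjusted p of 1.

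ALDH7A1, which acts in lysine breakdown and is mutated in pyridoxine-dependent epilepsy, had 61.0 and 17.3 TPM with hairpins 1 and 2 against 56.6 TPM in the control of TOV21G. In PA-1 it had 90.6 and 86.0 against 90.7 TPM. The TOV21G hairpin 2 library alone was low, at 0.310 times the control (95% counting interval 0.283 to 0.339), where hairpin 1 was at 0.948 times (0.891 to 1.01). The log2 fold change in TOV21G was -0.67 (SE 0.63, edgeR adjusted p = 0.758). Without hairpin 1 it was -1.69 (edgeR adjusted p = 0.0245), a fit with 1 hairpin library against 1 control in which the spread came from PA-1. In PA-1 it was -0.08 (SE 0.64, edgeR adjusted p = 1).

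ALDH3A2, the fatty aldehyde dehydrogenase that is deficient in Sjögren-Larsson syndrome, lay below the control under both hairpins of both lines. Counted in each line apart, so did 31.9% of all genes in TOV21G and 34% in PA-1. The share lower in both lines together was not counted. It had 30.0 and 23.0 TPM with the hairpins against 34.2 TPM in the control of TOV21G, and 44.4 and 45.3 against 56.0 TPM in PA-1. Each control is a single library, so no overlap can be judged. The ratios of CPM were 0.778 and 0.682 in TOV21G and 0.751 and 0.811 in PA-1, and the log2 fold changes were -0.45 (SE 0.24, edgeR adjusted p = 0.601) and -0.36 (SE 0.24, edgeR adjusted p = 1). ALDH3A1, known from the cornea and absent from the tests, had 0 and 3 counts with hairpins 1 and 2 against 6 in the control of TOV21G, and 7 and 8 against 9 in PA-1.

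**Figure D2:**
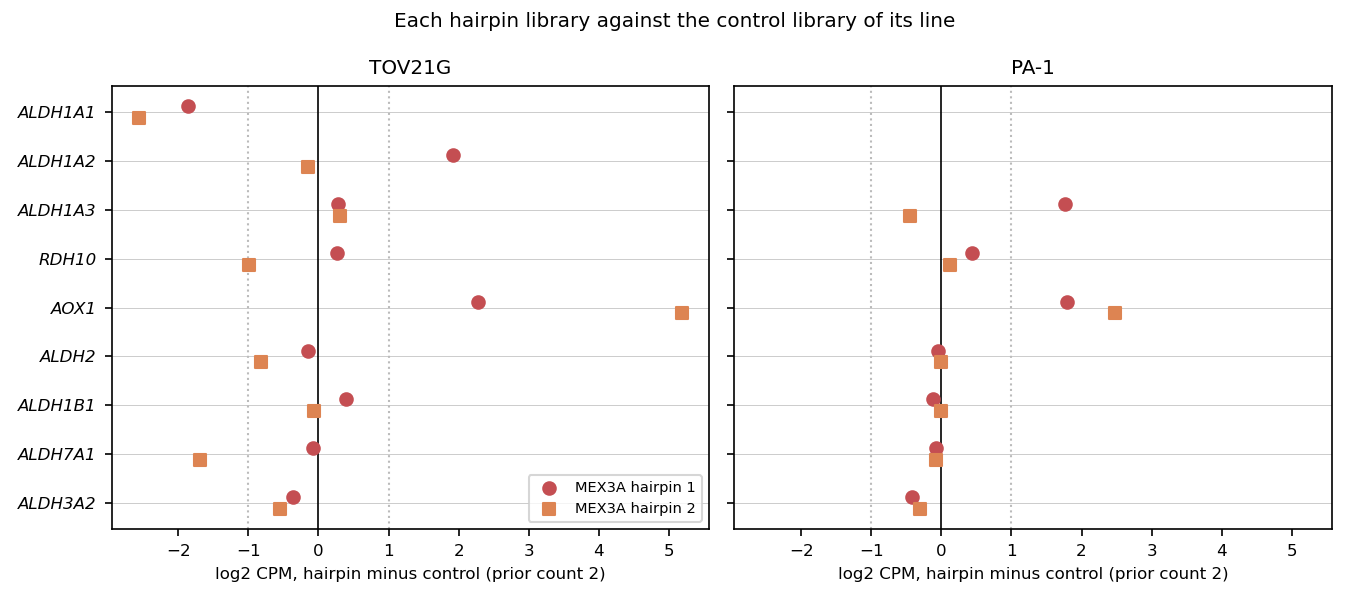
Difference in log2 CPM (horizontal axis, prior count 2) between each hairpin library and the control of its line for the 9 genes that passed the filter, TOV21G left and PA-1 right, with dotted lines at 2-fold and no point where both libraries were at or under 3 counts. In TOV21G, ALDH1A1 is at -1.86 and -2.56 and AOX1 at 2.28 and 5.19, and ALDH7A1 is past the dotted line with hairpin 2 alone, at -1.69.

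Counted over the members, ALDH1A1 was at least 2-fold lower with both TOV21G hairpins, as were 3.36% of the 16855 genes tested, and AOX1 at least 2-fold higher, as were 4.26%. These are the values that chose both genes, so nothing is read from the counts. In PA-1 the log2 CPM difference of AOX1 also passed 2-fold with both hairpins (3.36% of genes), but there it rests on the prior count, since against the floor of its control the bound was 1.61-fold with hairpin 1. No member was at least 2-fold lower there (0.682%). On the log2(TPM + 1) scale AOX1 passed 2-fold with TOV21G hairpin 2 alone (1.86). The edgeR test called 0 of 16855 genes in TOV21G, 0 in PA-1 and 0 for the difference between the lines' effects. At an unadjusted p under 0.05 it had 1612 (9.56%), 434 (2.57%) and 642 (3.81%) genes, and DESeq2 called 226, 36 and 19. By DESeq2, 0.558% of genes were higher and 0.783% lower with the TOV21G hairpins, 0.202% and 0.0119% with the PA-1 hairpins, and 0.0356% and 0.0771% for the difference. Of the 7 members tested with the hairpins (6 in PA-1, where ALDH1A2 was at the floor), 0 passed edgeR and 0 had an unadjusted p under 0.05. ALDH1A3 is counted there, although its PA-1 value is a description. DESeq2 called 0, and gave no adjusted p for ALDH1A2 and ALDH1A3. The line-by-hairpin differences ran from -0.59 (SE 0.91) for ALDH7A1 to 0.25 (SE 0.41) for ALDH1B1, each with an edgeR adjusted p of 1. That of ALDH1A3 (-0.89, SE 2.19) is a description, as in PA-1.

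Hairpins 1 and 2 did not give the same picture in TOV21G. ALDH1A2, ALDH7A1 and RDH10 were at least 2-fold lower with hairpin 2 than with hairpin 1, as were 8.94% of genes, and AOX1 at least 2-fold higher, as were 11.3%. The ratios of hairpin 2 to hairpin 1 were 0.232 for ALDH1A2, 0.327 for ALDH7A1 and 0.418 for RDH10. In PA-1 the ratio was 1.01 for ALDH7A1 and 0.809 for RDH10, and ALDH1A3 alone was at least 2-fold lower with hairpin 2 (2.85% of genes). MALAT1 separated the TOV21G hairpin libraries too, at 9429 CPM with hairpin 1 and 18460 CPM with hairpin 2, and its part was not tested.

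Between the lines edgeR called 6837 of 16855 genes. ALDH1A1, ALDH1A2 and RDH10 were higher in TOV21G, where 20% of genes were called higher, and ALDH3A2 was lower, where 20.6% were called lower. ALDH1A1 and ALDH1A2 passed the filter through TOV21G alone and so had to differ, and for them the counts and ratios are given as a description, with no p. The rule that chose the members did not use this contrast.

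For ALDH1A1, the ratio of TOV21G to PA-1 was 631 (95% counting interval 216 to 3063) with hairpin 1, 461 (157 to 2237) with hairpin 2 and 3305 (915 to 27300) in the controls. All 3 pairs were far apart. These ratios rest on 2 or 3 counts in PA-1. RDH10 was 78.5, 40.6 and 88.4 times as high in TOV21G with hairpin 1, with hairpin 2 and in the controls, a log2 fold change of 6.20 (SE 0.51, edgeR adjusted p = 0.00137) from the mean of knockdown and control groups in TOV21G minus that in PA-1. ALDH1A2 was 229 times as high with hairpin 1 (40.7 to 9099), from 1 count in PA-1. Where PA-1 had 0 counts it was at least 21.1-fold higher with hairpin 2 and at least 18.9-fold higher in the controls, against the 3-count floor of a library.

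ALDH3A2 was 0.715, 0.580 and 0.690 times as high in TOV21G as in PA-1 with hairpin 1, with hairpin 2 and in the controls, a log2 fold change of -0.58 (SE 0.17, edgeR adjusted p = 0.0469). The call was lost without PA-1 hairpin 1 (adjusted p = 0.228), without PA-1 hairpin 2 (0.264), with the knockdown libraries alone (0.0619), with the control libraries alone (0.253) and without the filter (0.0673) in edgeR. ALDH1B1 (-0.66, SE 0.21, edgeR adjusted p = 0.0569), ALDH2 (-0.55, SE 0.24, edgeR adjusted p = 0.129) and ALDH7A1 (-0.80, SE 0.46, edgeR adjusted p = 0.215) did not pass. As a description, ALDH1A3 was at -0.80 (SE 1.08) and AOX1 at 3.16 (SE 2.35). The fitted value of AOX1 depends on the prior count because its controls had 1 and 0 counts. With 1 TOV21G hairpin left out, the spread in edgeR came from the PA-1 hairpins alone, so no call is read from those fits. Without hairpin 1 the log2 fold changes of ALDH1B1 and ALDH2 were -0.77 and -0.72, and without hairpin 2 they were -0.55 and -0.39. ALDH7A1 was at -1.31 without hairpin 1 and -0.50 without hairpin 2.

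**Figure D3:**
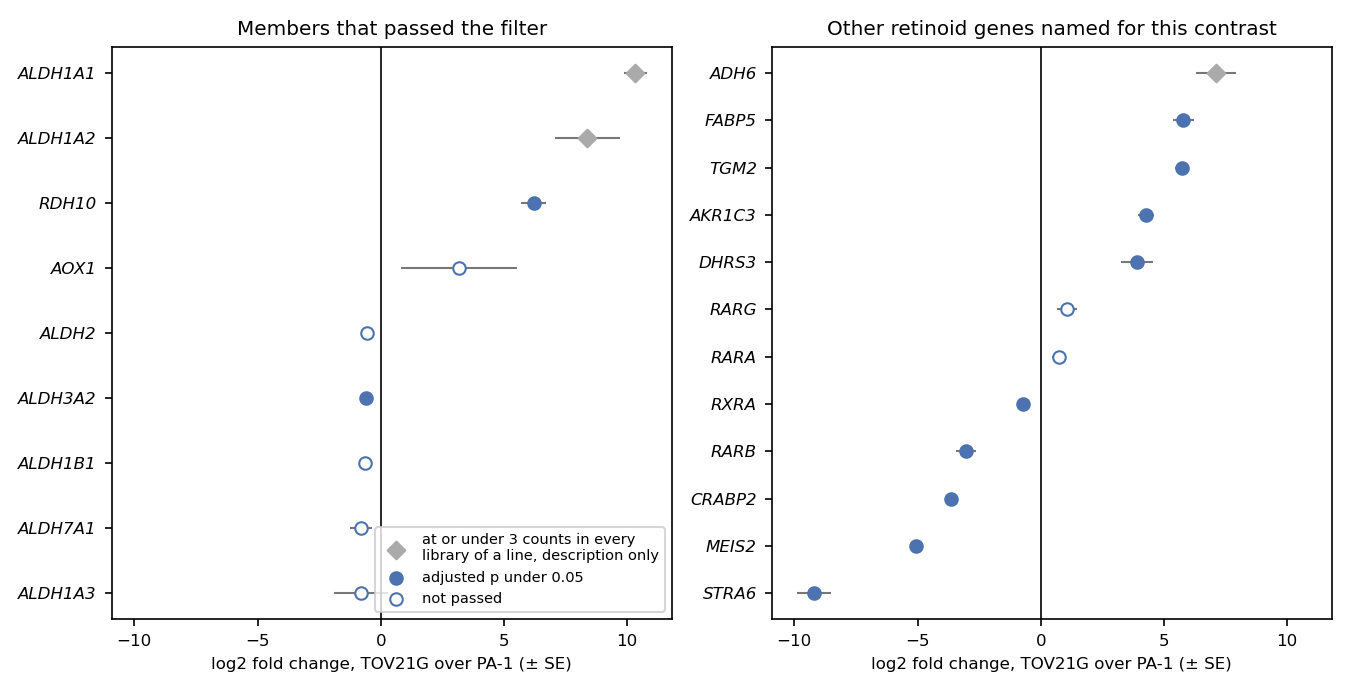
Log2 fold change of TOV21G over PA-1 (horizontal axis, bars are the SE) for the 9 members that passed the filter (left) and for other retinoid genes (right), filled circles where the edgeR adjusted p was under 0.05 and grey diamonds for genes at or under 3 counts in every library of a line, which are a description only. FABP5 and STRA6 have filled circles but passed the filter through TOV21G alone and PA-1 alone, so they too are a description only. Genes with no count in any library of a line are not drawn, and RDH10 lies at 6.20.

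Over the 19 aldehyde dehydrogenase genes, TOV21G held 631 and 386 TPM with hairpins 1 and 2 against 867 TPM in the control, and PA-1 held 520 and 486 against 524 TPM. ALDH1A1 made up 21.7% and 19% of the family's TPM with the TOV21G hairpins and 50.4% in the control, and at most 0.0442% in PA-1. Without ALDH1A1 the family summed to 495 and 312 TPM with the TOV21G hairpins against 430 TPM in the control, so the control then lay between the hairpins. The 3 retinaldehyde dehydrogenases summed to 147 and 75.4 TPM against 439 TPM in TOV21G, of which ALDH1A1 was 93.2%, 97.2% and 99.5%.

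**Figure D4:**
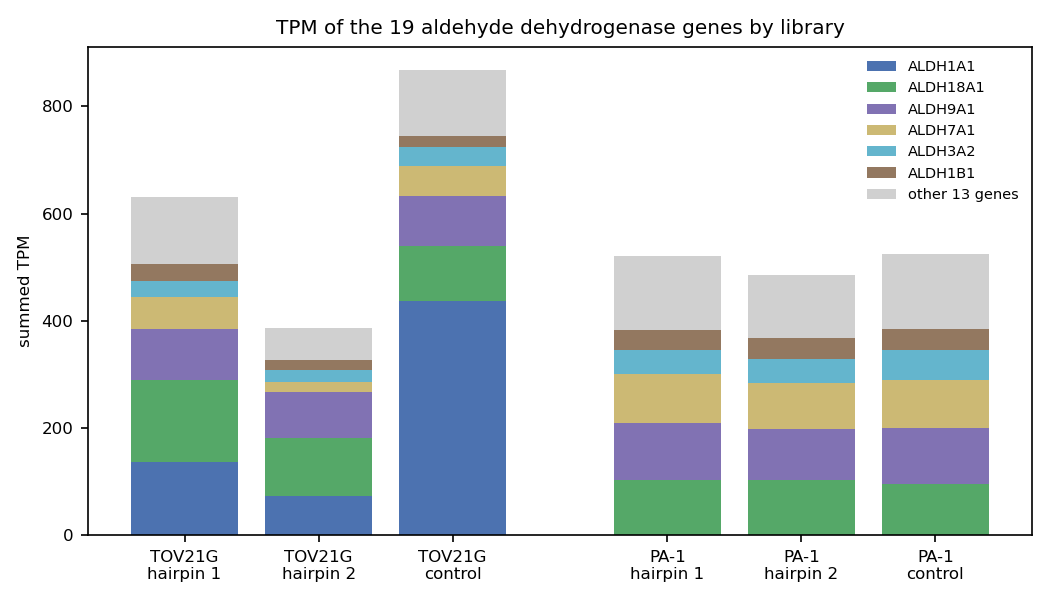
Stacked TPM (vertical axis from 0) of the 19 aldehyde dehydrogenase genes in each library, with 6 genes in colour and the other 13 in grey. ALDH1A1 takes 50.4% of the TOV21G control and 21.7% and 19% of its hairpin libraries, and cannot be seen in PA-1.

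Of the 11 other aldehyde dehydrogenases, 9 were tested. In TOV21G 7 were lower (31.9% of all genes) and 1 higher (31.3%) with both hairpins, with a median log2 fold change of -0.39 against 0.02 over all genes, and in PA-1 the median was -0.02 against 0. By edgeR and DESeq2, 0 were called with the hairpins of either line. At an unadjusted p under 0.05 edgeR had 2 in TOV21G (9.56% of all genes) and 0 in PA-1 (2.57%). They were ALDH6A1 and ALDH1L1. ALDH1L1 had 1, 1 and 19 counts with hairpin 1, hairpin 2 and the control of TOV21G. It passed the filter through that control library alone, so its value is a description. ALDH6A1, of valine breakdown, had 22.3 and 29.8 CPM with the hairpins against 59.3 CPM in the control of TOV21G (log2 fold change -1.19, SE 0.27, edgeR adjusted p = 0.385). Its log2 fold change was -0.99 without hairpin 1. ALDH5A1, of GABA breakdown, had 48.5 and 15.7 against 58.5 CPM, with hairpin 2 the low library as for ALDH7A1 (log2 fold change -0.86, edgeR adjusted p = 0.691). Its log2 fold change was -1.90 without hairpin 1. Between the lines, where 20% of genes were called higher and 20.6% lower, ALDH3B1 was called higher in TOV21G (4.27, SE 0.67, edgeR adjusted p = 0.00793) and ALDH6A1 lower (-1.13, SE 0.20, edgeR adjusted p = 0.0108). With control libraries alone both calls were lost (edgeR adjusted p = 0.0669 and 0.178), and ALDH6A1 was also lost without PA-1 hairpin 1 (0.0589) or hairpin 2 (0.0577).

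Of 22 other retinol and retinal oxidoreductases, 13 were tested, and 6 were lower (31.9% of all genes) and 3 higher (31.3%) with both TOV21G hairpins (median log2 fold change -0.18). There edgeR and DESeq2 called 0, and edgeR had 2 at an unadjusted p under 0.05 (9.56% of all genes). ADH6, an alcohol dehydrogenase, had 1.25 and 2.55 CPM with the hairpins against 9.16 CPM in the control of TOV21G (log2 fold change -2.26, SE 0.62, edgeR adjusted p = 0.427). DHRS3, which returns retinaldehyde to retinol and works beside RDH10, had 55.4 and 15.4 against 40.1 CPM in TOV21G. The control lay between the hairpins and hairpin 2 was the low library, as for RDH10. Between the lines 4 of the 13 were called higher in TOV21G (20% of all genes) and 1 lower (20.6%). Among them ADH6 passed the filter through TOV21G alone and RDH12 through PA-1 alone. Both had to differ, so these counts are a description. DHRS3 was higher by 3.90 on the log2 scale (SE 0.65, edgeR adjusted p = 0.00936, or 0.0569 with control libraries alone).

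Of 15 genes of retinoid uptake, binding, storage and clearance, 12 were tested. With both TOV21G hairpins 6 were lower (31.9% of all genes) and 4 higher (31.3%), with a median log2 fold change of -0.19, 0 called by edgeR or DESeq2 and 3 at an unadjusted p under 0.05 in edgeR (9.56%). Between the lines 6 were called higher in TOV21G (20%) and 4 lower (20.6%) by edgeR. These counts are a description, since they hold genes that had to differ. FABP5 passed the filter through TOV21G alone, and CRABP1 and STRA6 through PA-1 alone. FABP5, a fatty acid and retinoic acid carrier, had 11.4 and 7.66 CPM with the TOV21G hairpins against 24.6 CPM in the control, and at most 0.458 CPM in PA-1. Its log2 fold change was -1.36 with the TOV21G hairpins (SE 0.40, edgeR adjusted p = 0.455) and -1.68 without hairpin 1. Between the lines it was 5.79 (SE 0.42), a description with no p, since FABP5 passed the filter through TOV21G alone. CRABP2, a retinoic acid carrier, was lower in TOV21G, at 10.4, 10.6 and 13.8 CPM with hairpin 1, hairpin 2 and the control, against 135, 120 and 175 CPM in PA-1 (-3.63, SE 0.19, edgeR adjusted p = 0.000732). CRABP1 had 0 counts in every TOV21G library and 64.9 to 132 CPM in PA-1. STRA6, the membrane receptor for retinol-binding protein, had 0.132, 0.605 and 0 CPM in TOV21G and 26.2, 21.5 and 41.6 CPM in PA-1.

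Of 6 retinoic acid receptors, 5 were tested, and with the TOV21G hairpins 0 were called by edgeR or DESeq2 and 0 had an unadjusted p under 0.05 in edgeR. RARB was lower in TOV21G than in PA-1 (-3.02, SE 0.40, edgeR adjusted p = 0.00489), as was RXRA (-0.71, SE 0.17, edgeR adjusted p = 0.0263). The RXRA call was lost without PA-1 hairpin 1 (edgeR adjusted p = 0.172), without PA-1 hairpin 2 (0.181) and with control libraries alone (0.155). Of 16 genes that retinoic acid is known to induce, 15 were tested. With both TOV21G hairpins 8 were higher (31.3% of all genes) and 3 lower (31.9%), with 0 called by edgeR or DESeq2 and 2 at an unadjusted p under 0.05 in edgeR (9.56%). Between the lines 7 were called higher in TOV21G (20%) and 7 lower (20.6%) by edgeR. These counts too are a description. RARRES1, for example, passed the filter through TOV21G alone and STRA6 through PA-1 alone, so both had to differ. TGM2, a transglutaminase, had 241, 197 and 176.5 CPM in TOV21G with hairpin 1, hairpin 2 and the control, against 5.04, 3.71 and 3.08 CPM in PA-1 (5.74, SE 0.28, edgeR adjusted p = 0.000677).

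AOX1 needs the sulfurated molybdenum cofactor, and 9 genes of molybdenum enzymes and cofactor synthesis were tested. In TOV21G 5 were lower (31.9% of all genes) and 0 higher (31.3%) with both hairpins (median log2 fold change -0.42), with 0 called by edgeR or DESeq2 and 0 at an unadjusted p under 0.05 in edgeR. XDH, xanthine dehydrogenase and a relative of AOX1, had 3.43 and 32.6 CPM with hairpins 1 and 2 against 4.03 CPM in the control of TOV21G. Hairpin 2 alone was high, as it was highest for AOX1, and the log2 fold change was 2.16 (SE 1.35, edgeR adjusted p = 0.646). It was 3.01 without hairpin 1 and -0.24 without hairpin 2 in edgeR. MOCOS, which sulfurates the cofactor, had 21.2 and 13.5 against 25.1 CPM in TOV21G and was higher there than in PA-1 (3.75, SE 0.33, edgeR adjusted p = 0.00159).

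The profiles most like that of ALDH1A1 over the 6 libraries, by root mean square distance of centred log2 CPM among 11555 genes of at least 5 CPM, were those of GALNT14 (0.37), CHL1 (0.47), TNFRSF11B (0.54), DKK1 (0.54) and PDE1A (0.57). The distance takes in the gap between the lines, so a near profile need not carry a hairpin difference of the same size. DKK1, a secreted WNT inhibitor, had 49.7 and 90.2 CPM with the TOV21G hairpins against 278 CPM in the control. GALNT14 had 42.3 and 52.9 against 142.6 CPM, and PDE1A 39.8 and 46.3 against 104.8 CPM. CHL1 had 65.3 and 52.0 against 107.3 CPM, and TNFRSF11B 82.8 and 68.4 against 123.8 CPM. For AOX1 they were PTPRB (0.69), H2BC21 (0.70), CCN1 (0.71), CPA4 (0.74) and NR4A1 (0.81). CCN1, a matricellular protein, had 328 and 1533 CPM with the TOV21G hairpins against 177 CPM in the control, and 106 and 265 against 29.1 CPM in PA-1. These are ranks over 6 libraries that share lines and hairpins, given as a description.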

How the data were processed

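The authors deposited an RSEM table per library, per the file headers, with the expected count (an estimated count), TPM, FPKM (not used) and length of 39282 genes; the submitters' processing notes name cutadapt 1.12, STAR 2.5.3a, RSEM 1.2.31, edgeR 3.26.8 and hg38. Counts were rounded, scaled by TMM and fitted with edgeR 4.0.16 in R 4.3.3 over 4 groups (line by hairpin or control), with 2 residual degrees of freedom and a biological coefficient of variation of 0.295; filterByExpr kept 16855 genes. Adjusted p values are Benjamini-Hochberg over all of them, with a threshold of 0.05, and the SE is the log2 fold change over the square root of its F. DESeq2 1.42.0 was an alternative. The scripts were tested on simulated data. Both hairpins give the spread, the lone control of a line is assumed to vary like them, and nothing says that cultures were separate, so p values reflect only how these libraries vary, which may be technical. Counting intervals (95%, exact) and floors cover counting error only. Members and lists were chosen with earlier results of these data known. Named genes were the members, MEX3A, MALAT1 and NEAT1, and, per list, some of up to 4 genes with the smallest p in TOV21G and up to 4 between the lines, with 5 profiles most like ALDH1A1 and AOX1. Blood and endothelial markers summed to at most 68.2 TPM in PA-1 and 1.67 TPM in TOV21G. Promoters and motifs came from RefSeq (GRCh38.p14), as did gene positions, and gene strands and overlapping genes came from GENCODE (GRCh38).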

Additional observations from a re-analysis of the deposited data

How the results depend on the processing

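DESeq2 called 226 genes with the TOV21G hairpins, 36 with the PA-1 hairpins and 19 for the difference, where edgeR called 0 each. The hairpin number as a replicate block gave 36 in TOV21G and 13 in PA-1, with 6 members called between the lines in place of 4 (ALDH1A1 and ALDH1A2 included, which passed the filter through TOV21G alone). Libraries with the same number share the hairpin reagent, and only 2 such pairs exist. Whether they were made together is not stated. Leaving out 1 hairpin library gave 0 to 1489 calls in TOV21G (1489 without TOV21G hairpin 1), 3850 to 9946 between the lines (6837 with all) and 3 to 7 members called there. With control libraries alone 2508 genes and 2 members were called. On log2(TPM + 1), 1 member in TOV21G and 0 in PA-1 were 2-fold different with both hairpins, in place of 2 and 1. Leaving out TOV21G hairpin 1 or hairpin 2 gave opposite directions for ALDH1A2 (-0.149 and 1.96), ALDH1B1 (-0.0588 and 0.393), RDH10 (-0.996 and 0.261), RARA (-0.783 and 0.0312) and XDH (3.01 and -0.235) in the TOV21G log2 fold change. In PA-1, ALDH2 was at 0.0036 without hairpin 1 and -0.0499 without hairpin 2. ALDH1L1 was at 3.18 between the lines with all libraries and at -0.97 with knockdown libraries alone. In those it had 1 to 3 counts, at or under the floor, so no direction is read there. What moved the other genes was not tested. Of the values for single genes under an alternative, 591 kept their direction and side of the threshold, 23 lost a call, 21 gained one, 7 changed sign and 3 untested ones moved. Depth limits ALDH1A3, ALDH3A1, AOX1 and ALDH1L1, and ALDH1A1 and ALDH1A2 in PA-1.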
